A study of Mus musculus with 2 samples.

Results

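Collagens are the main structural proteins of the arterial wall. The genes described here were all those whose symbol had the form of a collagen alpha chain, from Col1a1 to Col28a1, and 44 of the 32285 genes in the library met that rule. They were split by what their chains build into 11 fibrillar collagens, 8 basement-membrane collagens and 25 others.

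The cells were primary vascular smooth muscle cells (VSMCs) from the aorta of C57BL/6 mice, bought and grown in dishes, so all the levels are those of cells in culture and not of the vessel wall. A single pooled droplet library held 4 groups, each marked by an antibody with its own DNA hashtag: young cells (12 weeks, tag 1), old cells (58 to 78 weeks, tag 2), young cells treated with 100 nM Angiotensin II (young + AngII, tag 3) for 48 h, and old cells transfected with siRNA against Piezo1 (old + siPiezo1, tag 4) at 20 nM by the study's methods or 25 nM by its results. AngII is a hormone that constricts vessels, and Piezo1 is an ion channel opened by mechanical force. The pairing of tags with groups was read from the numbers in the study's schematic of the experiment, which neither the sample labels nor the text spell out, and for that reason tag numbers are given throughout. Each group was taken as 1 culture, because nothing in the labels tells replicate cultures apart. Since the cells of 1 culture do not stand for repeats of a condition, no test between conditions was made, and every interval below covers counting error only.

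The library held 13045 cells with a median of 7915 unique molecular identifiers (UMIs, each standing for 1 captured RNA molecule). Tag 1 marked 3144 cells, tag 2 marked 497, tag 3 marked 1500 and tag 4 marked 1529, while 5307 cells (40.7%) had no tag above its cutoff and 1068 had more than 1. Median depth was 6816.5 UMIs per cell in tag 1 and between 9453.5 and 10663 in tags 2 to 4. Separation of the hashtags was weak outside tag 1, with a median of 67 to 113 UMIs of the own tag against 364 in tag 1. The tags differed in sex-linked transcripts. In tags 1 and 3, 54.1% and 55.5% of cells had Y-linked but no Xist UMIs, against 19.5% and 13.8% in tags 2 and 4. Age and the sex of the cells therefore cannot be told apart between these groups. The subsets by sex-linked UMIs given below do not settle this, because they rest on few cells in some tags. In tag 1, 154 cells had Xist and no Y-linked UMIs, fewer than the 250 with both. In tag 2, 97 cells had Y-linked and no Xist UMIs. Whether such cells carried the wrong tag or held free RNA was not tested. Young and old cells also came from different mice, so donor cannot be told apart from age either. The study's methods list cells of more than 1 vendor, each grown in its own medium. Which of them entered this library is not stated, so vendor and medium may differ with age too. Piezo1 itself was at 71.6 CPM (counts per 1000000 UMIs of a tag's cells) in tag 1, 89.6 in tag 2, 108 in tag 3 and 86.9 in tag 4, and the ratio of tag 4 to tag 2 was 0.969 (95% interval 0.874 to 1.08). A level 1.5 times lower lay outside that interval, whose nearest bound was 0.874, so the targeted gene went against the name of tag 4, and its cells are called tag 4, or the cells labelled siPiezo1, below. Of the 9 VSMC markers, 8 reached 10 CPM, with Acta2, the smooth muscle actin, between 174 and 568 CPM and Myh11, the smooth muscle myosin, at 1.94 to 7.89 CPM. The summed level of 6 endothelial markers was 3.75 to 8.42 CPM and that of 5 macrophage markers 6.15 to 11.7 CPM. Of 7 fibroblast markers, 3 reached 10 CPM, led by Dcn at 448 to 676 CPM. The summed level of the 7 was 526 CPM in tag 1, 545 in tag 2, 722 in tag 3 and 748 in tag 4. Dcn made most of each sum, at 448, 506, 669 and 676 CPM in tags 1 to 4. Pdgfra was instead highest in tag 1, at 63.8, 31.0, 34.7 and 57.2 CPM, and Dpt in tag 3, at 10.7, 5.56, 16.5 and 8.13 CPM. The 8 markers of dividing cells together were at 736, 681, 444 and 760 CPM in tags 1 to 4, and mitochondrial transcripts made 1.05%, 1.67%, 0.587% and 1.65% of UMIs. The 9 VSMC markers together were at 2942 CPM in tag 1, 3595 in tag 2, 3518 in tag 3 and 1985 in tag 4. Cald1 alone gave 1627, 1466, 2030 and 967 CPM of these sums. From tag 1 to tag 3, Tagln, Smtn and Cald1 were higher, while Acta2, Myh11, Cnn1, Myl9, Lmod1 and Tpm2 were lower. The part of these marker and mitochondrial differences in the results below was not tested.

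A collagen molecule is a triple helix of 3 alpha chains, wound from the same chain or from chains of several genes. Fibrillar collagens, of which types I and III are the most abundant in arteries, assemble outside the cell into the fibres that carry tensile load, and types V and XI sit within those fibres and set their diameter. Type IV chains instead form the sheet-like network of the basement membrane that surrounds each smooth muscle cell. Newly made chains are hydroxylated and folded in the endoplasmic reticulum, exported, and trimmed of their end propeptides by secreted proteases before fibres form.

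**Figure D1:**
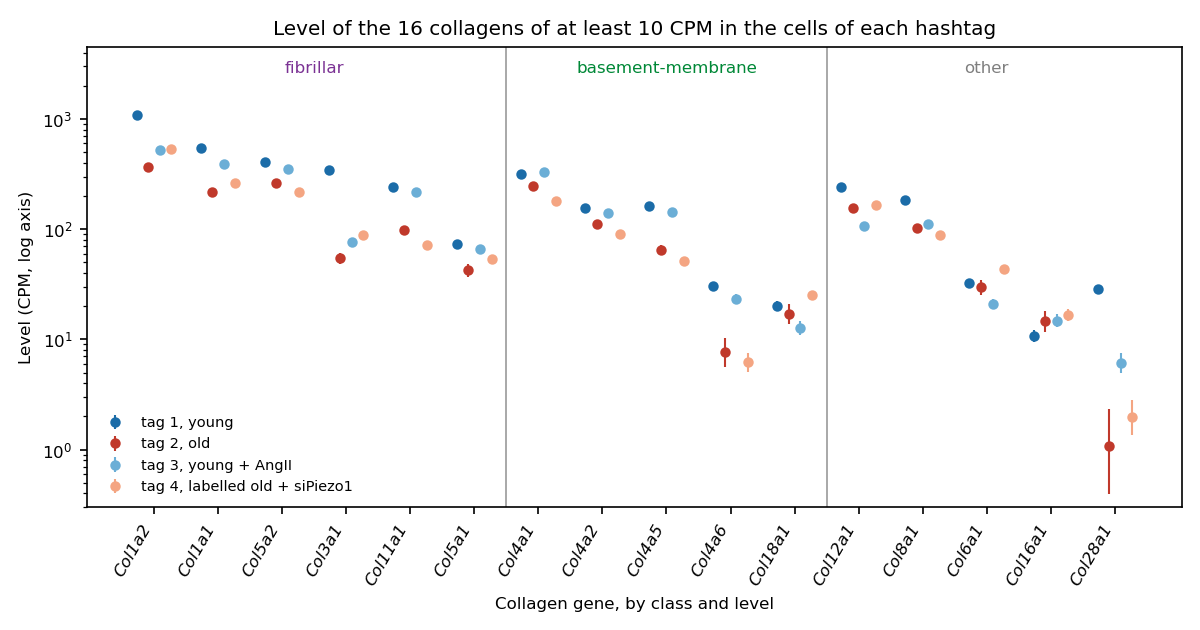
Level of each of the 16 collagens of at least 10 CPM in the tagged cells (x axis, grouped by class) as CPM on a log axis, with 1 point for each hashtag and exact Poisson 95% intervals as bars. Tag 1 (young) is the highest point for 12 of the 16 genes, a count with no share over all genes beside it. Col28a1 spans the widest range, from 28.9 CPM in tag 1 to 1.08 CPM in tag 2.

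Among the 44 collagens, 16 reached 10 CPM over the tagged cells, 11 lay between 1 and 10 CPM, and 17 were below 1 CPM. Each of the 44 had at least 1 UMI somewhere in the tagged cells. The 5 highest genes, Col1a2, Col1a1, Col5a2, Col4a1 and Col3a1, gave 66.6% of all collagen UMIs, and the 16 genes over the limit gave 98.0%. UMIs are read from the 3′ end of each molecule, so these levels were not divided by transcript length. How well each gene was captured and assigned was not checked, so levels of different genes compare only roughly. The cartilage collagen Col2a1 had a single UMI in all tagged cells. Of the 16 genes, Col28a1 and Col4a6 were under 10 CPM in some tags and passed the limit through the tags where they were high. Nearest to the limit from above were Col28a1 and Col16a1, both at 13.6 CPM over the tagged cells, and nearest from below were Col6a3 at 9.19 CPM and Col5a3 at 9.12 CPM.

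Total collagen was highest in the young cells. All collagens together made 3926 CPM in the young cells of tag 1, 1843 CPM in the old cells of tag 2, 2593 CPM after AngII (tag 3) and 1959 CPM in the cells labelled siPiezo1 (tag 4), which is 0.393%, 0.184%, 0.259% and 0.196% of all UMIs. Fibrillar collagens were the larger part in each group, with 68.8% of collagen UMIs in tag 1, 57.3% in tag 2, 63.8% in tag 3 and 63.5% in tag 4. Fibrillar collagens alone were at 2699 CPM in tag 1 (95% interval 2679 to 2720), at 1057 CPM in tag 2 (1030 to 1084), at 1653 CPM in tag 3 (1633 to 1674) and at 1243 CPM in tag 4 (1226 to 1260). Basement-membrane collagens followed another order, at 691 CPM in tag 1, 651 in tag 3, 449 in tag 2 and 357 in tag 4. The remaining class was at 535 CPM in tag 1, 359 in tag 4, 337 in tag 2 and 288 in tag 3. Cells without a tag were at 1228 CPM for fibrillar and 431 CPM for basement-membrane collagens. Near-empty barcodes, which give the profile of RNA free in the suspension, were at 1542 CPM and 571 CPM for the same classes, above the cells of tags 2 and 4.

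Between the old and the young cells, collagen transcripts were lower in the old cells in every class. Fibrillar collagens stood at 0.392 of the young level (95% interval 0.381 to 0.402), basement-membrane collagens at 0.650 (0.623 to 0.678) and the others at 0.630 (0.60 to 0.662). Among the 16 collagens, 11 were at least 1.5 times lower in tag 2 than in tag 1, against 10.5% of all 8463 genes of at least 10 CPM, and 0 were at least 1.5 times higher, against 7.93% of all genes. The median ratio of the 16 was 0.567, beside 1.02 for all genes. Of the 14 that reached 10 CPM in every tag, 9 were lower by that fold. The shares over all genes, here and below, were not limited to genes that reached 10 CPM in every tag.

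All 6 fibrillar collagens over the limit were at least 1.5 times lower in the old cells when all cells were taken. In cells with Xist and no Y-linked UMIs, 3 of the 6 were not, namely Col11a1 at 0.904, Col5a2 at 0.871 and Col5a1 at 0.727. Without cluster 2, an interferon-led cluster described below, Col5a2 (0.672) and Col5a1 (0.679) fell just short of the fold. Col1a2, which encodes the second chain of type I collagen, had the most UMIs of the collagens in each group. It was at 1078 CPM in tag 1, 363 in tag 2, 525 in tag 3 and 531 in tag 4. Its level in the old cells was the lowest of the 4 groups. Col1a1, the other type I chain, was likewise lowest in the old cells, at 541 CPM in tag 1, 219 in tag 2, 390 in tag 3 and 263 in tag 4. The ratio of old to young was 0.337 (0.322 to 0.352) for Col1a2 and 0.405 (0.382 to 0.430) for Col1a1. Col3a1, the only chain of type III collagen, was the fibrillar gene with the lowest ratio, at 341 CPM in tag 1, 54.3 in tag 2, 76.3 in tag 3 and 89.0 in tag 4. Its level in tag 1 stood far from the other 3 groups, and the ratio of old to young was 0.159 (0.141 to 0.178). Of the 8234 Col3a1 UMIs in tag 1, 5577 came from cluster 2, and without that cluster the ratio was 0.264. Col11a1, a type XI chain found in the core of fibrils, was at 240 CPM in tag 1, 98.8 in tag 2, 218 in tag 3 and 72.0 in tag 4. Here the 2 young groups lay together above the 2 old groups, but not in the Xist-only cells, where Col11a1 was at 107 CPM in tag 1, 96.4 in tag 2, 90.7 in tag 3 and 64.1 in tag 4. The type V chains Col5a2 and Col5a1, which help start fibril assembly, had ratios of 0.638 (0.604 to 0.675) and 0.576 (0.501 to 0.660).

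Basement-membrane collagens differed less between old and young, and not all by the same amount. Col4a1 and Col4a2, whose chains make the commonest type IV molecule, were at 319 and 156 CPM in tag 1, 246 and 110 in tag 2, 328 and 141 in tag 3, and 180 and 90.6 in tag 4. The old to young ratio was 0.771 (0.728 to 0.817) for Col4a1 and 0.708 (0.649 to 0.771) for Col4a2, so neither passed the fold of 1.5. Col4a5, whose chain joins that of Col4a6 in the basement membrane of smooth muscle, was at 162 CPM in tag 1, 64.5 in tag 2, 143 in tag 3 and 51.5 in tag 4. Col4a6 was at 30.7 CPM in tag 1, 7.71 in tag 2, 23.4 in tag 3 and 6.21 in tag 4. Over all cells, the 2 young groups were above the 2 old groups for both genes with no overlap of their intervals. The old to young ratios were 0.397 (0.356 to 0.443) and 0.251 (0.18 to 0.342). Cells with Y-linked and no Xist UMIs kept these groups apart, but Xist-only cells did not. There the Col4a5 interval was 67.3 to 96.3 CPM for young and 59.1 to 76.9 for old cells. That of Col4a6 was 10.5 to 23.9 CPM for young and 6.21 to 13.0 for old cells. No share over all genes stands beside this separation. Col18a1, the precursor of endostatin, had a ratio of 0.840 with an interval that included 1 (0.667 to 1.05).

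Among the other collagens, Col28a1 differed most. This distant relative of type VI collagen was at 28.9 CPM in tag 1 (696 UMIs), 1.08 in tag 2 (6 UMIs), 6.09 in tag 3 (91 UMIs) and 1.99 in tag 4 (32 UMIs), beside 8.11 CPM in free RNA. The old to young ratio was 0.0373 (0.0136 to 0.0816). Col12a1, which lies along the surface of type I fibrils, and Col8a1, a network-forming collagen made by vascular cells, had ratios of 0.644 (0.599 to 0.692) and 0.557 (0.510 to 0.608). Col6a1, a chain of the beaded filaments of type VI, had a ratio of 0.910 with an interval that included 1 (0.765 to 1.08). Col16a1, which associates with fibrils, was the only collagen over the limit with a ratio above 1, at 10.7 CPM in tag 1 and 14.7 in tag 2 and a ratio of 1.37 (1.05 to 1.76), under the fold of 1.5.

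The 4 stretches of DNA below lie before the starts of 4 collagens. Col3a1 and Col28a1 are shown as the fibrillar and the other collagen with the lowest old to young ratios. Col4a5 and Col4a6 are shown because, over all cells, both were lower in tags 2 and 4. The stretches hold up to 250 bases before each RefSeq start (GRCm38.p6), 5′ to 3′ on the strand of the gene. Bases that GENCODE vM21 places in an exon are left out. Col3a1 is on the plus strand of chr1:45311288-45311537, Col28a1 on the minus strand of chr6:8192618-8192867, Col4a5 on the plus strand of chrX:141475169-141475384, and Col4a6 on the minus strand of chrX:141474077-141474326. Capitals mark every match of CCAAT, of TATAA and of GGGCGG on either strand.
Col3a1: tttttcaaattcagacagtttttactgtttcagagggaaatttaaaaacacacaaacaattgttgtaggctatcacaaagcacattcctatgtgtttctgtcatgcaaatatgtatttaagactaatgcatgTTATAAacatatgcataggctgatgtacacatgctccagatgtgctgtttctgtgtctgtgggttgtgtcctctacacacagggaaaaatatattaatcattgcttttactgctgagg
Col28a1: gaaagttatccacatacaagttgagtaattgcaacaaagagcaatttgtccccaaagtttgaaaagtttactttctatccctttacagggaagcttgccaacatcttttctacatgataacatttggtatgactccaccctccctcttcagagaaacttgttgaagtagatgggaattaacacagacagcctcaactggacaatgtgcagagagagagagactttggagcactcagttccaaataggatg
Col4a5: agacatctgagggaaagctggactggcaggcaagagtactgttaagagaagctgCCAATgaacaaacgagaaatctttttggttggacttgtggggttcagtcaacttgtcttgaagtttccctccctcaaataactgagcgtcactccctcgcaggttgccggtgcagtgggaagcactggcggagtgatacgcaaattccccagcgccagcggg
Col4a6: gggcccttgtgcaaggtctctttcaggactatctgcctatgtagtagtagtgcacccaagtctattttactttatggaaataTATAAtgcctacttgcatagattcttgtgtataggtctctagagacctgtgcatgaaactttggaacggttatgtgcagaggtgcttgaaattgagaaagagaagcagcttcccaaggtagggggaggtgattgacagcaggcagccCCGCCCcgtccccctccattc
Col4a5 held 1 CCAAT, 196 bases before the start, and Col4a6 held 1 TATAA, 168 bases before, and 1 GGGCGG on the opposite strand, 21 bases before. The Col3a1 match, 117 bases before the start, reads TATAA on one strand and overlaps its complement on the other. Col28a1 held none of these motifs in these bases. Of the 32851 windows of 250 bases in the RefSeq set, 33.8% held CCAAT, 22.8% TATAA and 32.7% GGGCGG on either strand, while 34.2%, 18.4% and 57.9% of the 38 windows of collagen genes did. A match is a string of letters, and binding was not measured.

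Several collagen genes are neighbours, and neighbours did not always have like ratios. Col4a5 (chrX:141475385-141689234) and Col4a6 (chrX:141165403-141474076) lie head to head with 1308 bases between them in GENCODE vM21 (GRCm38), and Col4a1 (chr8:11198423-11312826) and Col4a2 (chr8:11312805-11449287) overlap by their starts. Col3a1 (chr1:45311538-45349706) and Col5a2 (chr1:45374321-45503282) lie tail to tail, 24614 bases apart, with old to young ratios of 0.159 and 0.638. The UMI ratio of Col4a1 to Col4a2 was 2.05 in tag 1, 2.23 in tag 2, 2.33 in tag 3 and 1.99 in tag 4, with intervals between 1.87 and 2.46 in all groups. The ratio of Col4a5 to Col4a6 was 5.30 in tag 1 (4.89 to 5.74) and 6.09 in tag 3 (5.44 to 6.84), below the 8.37 of tag 2 (6.09 to 11.8) and the 8.29 of tag 4 (6.73 to 10.3). The interval of tag 3 overlapped those of both tag 2 and tag 4. Type I and type III chains kept no fixed proportion, since the UMI ratio of Col1a1 to Col3a1 was 1.58 in tag 1, 4.04 in tag 2, 5.11 in tag 3 and 2.95 in tag 4.

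**Figure D2:**
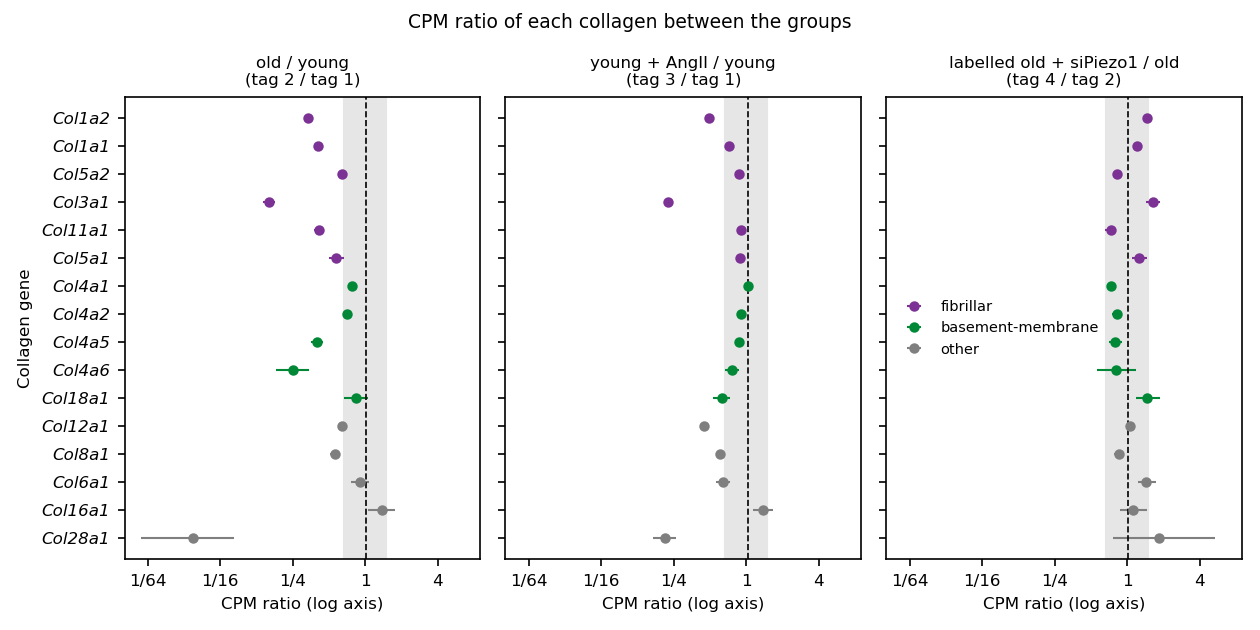
CPM ratio on a log axis (x) of each of the 16 collagens (y) in 3 comparisons, with exact binomial 95% intervals, the band of ratios within the fold of 1.5 in grey and the median ratio of all 8463 genes as a dashed line. Of the 16 points, 11 lie left of the band for old against young cells, 7 for AngII-treated against untreated young cells and 0 for tag 4, labelled siPiezo1, against tag 2.

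In the AngII-treated young cells, fibrillar and other collagens were lower than in the young cells while the basement-membrane class was close to the young level. The ratios of tag 3 to tag 1 were 0.612 (0.604 to 0.621) for fibrillar, 0.942 (0.919 to 0.966) for basement-membrane and 0.539 (0.520 to 0.557) for other collagens. Of the 16 genes, 7 were at least 1.5 times lower, against 7.89% of all genes, and 0 were at least 1.5 times higher, against 6.89%. Among the 14 that reached 10 CPM in every tag, 6 were lower by that fold. The median ratio of the 16 was 0.742, beside 1.03 for all genes. Both this comparison and that of old with young cells have tag 1 as their denominator.

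Within the fibrillar class, 2 genes were at least 1.5 times lower after AngII. Col3a1 had a ratio of tag 3 to tag 1 of 0.224 (0.210 to 0.238) and Col1a2 one of 0.487 (0.475 to 0.499). The other type I chain, Col1a1, had a ratio of 0.721 (0.699 to 0.743), and Col11a1, Col5a2 and Col5a1 lay between 0.864 and 0.912. The UMI ratio of Col1a2 to Col1a1 was 1.99 in tag 1 (95% interval 1.95 to 2.04) and 1.35 in tag 3 (1.30 to 1.39), against 1.66 in tag 2 (1.54 to 1.78) and 2.02 in tag 4 (1.95 to 2.10). Of the other collagens, Col28a1 had a ratio of 0.211 (0.168 to 0.263), Col12a1 one of 0.445 (0.421 to 0.470), Col8a1 one of 0.607 (0.573 to 0.642) and Col6a1 one of 0.641 (0.560 to 0.731). Col18a1 was the single basement-membrane gene past the fold, at 20.3 CPM in tag 1 and 12.7 in tag 3. Col4a1 had a ratio of 1.03 (0.992 to 1.07), and Col4a5 one of 0.878 (0.833 to 0.926).

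Between tag 4, labelled siPiezo1, and the old cells of tag 2, Piezo1 itself was at like levels. Ratios of the fibrillar and other classes lay nearer to 1 than in both comparisons above. That of the basement-membrane class was nearer to 1 than for old to young cells (0.650) but farther than for tag 3 to tag 1 (0.942). The ratios of tag 4 to tag 2 were 1.18 (1.14 to 1.21) for fibrillar, 0.795 (0.758 to 0.833) for basement-membrane and 1.06 (1.01 to 1.12) for other collagens. Of the 16 genes, 2 were at least 1.5 times higher, against 1.8% of all genes, and 0 were at least 1.5 times lower, against 1.0%. The 2 were Col3a1, with a ratio of 1.64 (1.45 to 1.86), and Col28a1, with a ratio of 1.85 whose interval of 0.762 to 5.40 included 1. Col28a1 was at 1.08 and 1.99 CPM in these tags, under the limit it had passed through tag 1, and its ratio was below 1 under 4 of the alternatives. Among the 14 genes of at least 10 CPM in every tag, only Col3a1 passed the fold, and with tags given by the highest centred log ratio its ratio was 1.43 and none did. Just under the fold were Col18a1 at 1.48 (1.18 to 1.87), Col1a2 at 1.46 (1.39 to 1.54) and Col6a1 at 1.45 (1.22 to 1.73). On the other side of 1 were Col11a1 at 0.729 (0.658 to 0.808), Col4a1 at 0.733 (0.687 to 0.782), Col4a5 at 0.797 (0.704 to 0.905), Col4a2 at 0.822 (0.747 to 0.904), Col5a2 at 0.826 (0.777 to 0.879) and Col8a1 at 0.850 (0.771 to 0.938). Col4a6 had a ratio of 0.805 with an interval that included 1 (0.558 to 1.18), and Col1a1 one of 1.20. Over all cells, Col1a1, Col1a2 and Col3a1 were thus higher and Col4a1, Col4a2 and Col4a5 lower in tag 4 than in tag 2, with differences between clusters given below. Levels of Col3a1 and Col1a2 in tag 4 stayed below those of tag 1.

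Among the 28 collagens under the limit, 6 were at least 1.5 times higher in tag 2 than in tag 1, with no share over all genes so low to set beside them. A few of the 28 differed between groups by more than the counting error, and they were chosen for mention after their values were seen. Col5a3, the third type V chain, was highest in the AngII-treated cells, at 17.5 CPM in tag 3 against 6.84 in tag 1, 4.12 in tag 2 and 6.52 in tag 4, with a ratio of tag 3 to tag 1 of 2.55 (2.09 to 3.12). Col25a1, a transmembrane collagen, was at 6.45 CPM in tag 2 and 7.64 in tag 4 against 1.37 in tag 1 and 1.27 in tag 3. Its old to young ratio of 4.72 (2.86 to 7.81) rested on 36 and 33 UMIs. Col6a2, a type VI chain, was at 10.5 CPM in tag 1, 3.59 in tag 2, 4.89 in tag 3 and 11.5 in tag 4, so that its ratio of tag 4 to tag 2 was 3.22 (2.03 to 5.39) on 186 and 20 UMIs.

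Seen per cell, the tags differed in the UMIs of the median cell and in the share of cells with a transcript. In counts this low a lower mean by itself lowers that share, so these are not separate results. After each cell was thinned to 5000 UMIs, which left out 747 cells of tag 1, 21 of tag 2, 136 of tag 3 and 114 of tag 4, the median cell held 4 UMIs of Col1a2 in tag 1, 1 in tag 2, 2 in tag 3 and 2 in tag 4. At least 1 Col3a1 UMI was found in 56.4% of these cells in tag 1, 18.9% in tag 2, 27.9% in tag 3 and 31.5% in tag 4, and in 64.8%, 33.8%, 39.7% and 44.9% of all cells without thinning. The marker lists used here named no cluster as a cell type that should lack Col3a1, so the share that free RNA gives could not be set beside these. Free RNA held 118 CPM of Col3a1. Cluster 12, with 151 cells led by Upk1b, Msln and Smpd3 and 0 of 9 VSMC markers above the rest, held 131 CPM (110 to 156), and lists of epithelial or mesothelial markers were not checked. Clusters 7 and 9 also had 0 of 9 VSMC markers above the rest, with Col3a1 at 114 and 172 CPM. In tag 1, the tenth of cells with most Col3a1 held 49.1% of its UMIs, against 28.7% for Col1a2. Spearman's rho across the thinned cells of tag 1, a description over 2397 cells of the same library, was 0.51 between Col1a1 and Col1a2, 0.38 between Col1a1 and Col3a1 and 0.37 between Col4a1 and Col4a2, beside a median of 0.11 over the 66 pairs of the 12 highest collagens. The pair Col1a1 and Col1a2 had the highest rho of the 66 in each tag, at 0.28 in tag 2, 0.33 in tag 3 and 0.32 in tag 4. In counts this sparse such values also depend on the level of each gene, and Col1a2 and Col1a1 were the highest collagens over the tagged cells. The part of level in the order between pairs was not tested.

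**Figure D3:**
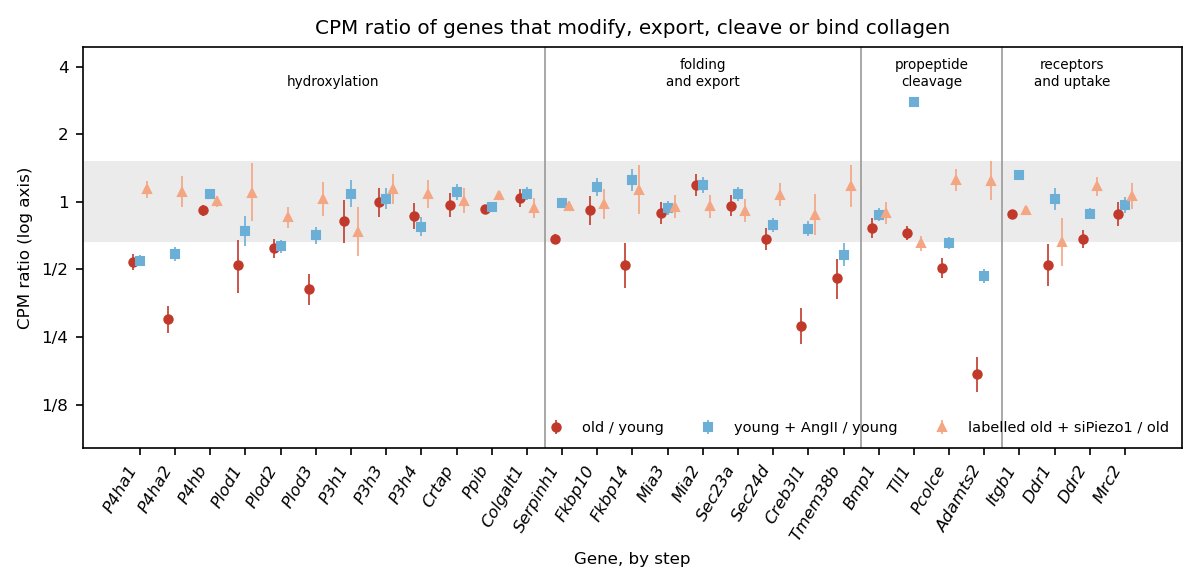
CPM ratio on a log axis (y) of the 29 genes of collagen modification, export, cleavage and binding that reached 10 CPM (x, by step), with exact binomial 95% intervals and the band within the fold of 1.5 in grey. Old against young cells have 11 points below the band and 0 above it, and Tll1 in AngII-treated cells, at 2.80, is the only point above the band.

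Over all cells, genes that process collagen were lower along with it in the old cells, in part. Their values within the sex-linked subsets or without cluster 2 are not given here. Of 39 such genes, 29 reached 10 CPM, and 11 of these were at least 1.5 times lower in tag 2 than in tag 1 while 0 were higher by that fold, against 10.5% of all genes lower and 7.93% higher. Their median ratio was 0.727, beside 1.02 for all genes. The lowest was Adamts2, the protease that removes the amino-terminal propeptide of fibrillar procollagens, at 137 CPM in tag 1, 23.3 in tag 2, 64.3 in tag 3 and 28.9 in tag 4. Creb3l1, a transcription factor that activates type I collagen genes, had an old to young ratio of 0.281, the prolyl hydroxylase subunit P4ha2 one of 0.30, and the lysyl hydroxylase Plod3 one of 0.408. P4ha1 was at 221 CPM in tag 1, 119 in tag 2, 121 in tag 3 and 136 in tag 4, and Plod2, whose product hydroxylates lysines at cross-linking sites, at 139, 86.4, 88.0 and 73.8 CPM. Serpinh1, the collagen chaperone HSP47, was at 485 CPM in tag 1, 331 in tag 2, 480 in tag 3 and 316 in tag 4, so the young groups again lay together. P4hb, the shared subunit of prolyl hydroxylase, stayed within 314 to 372 CPM in all 4 groups.

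After AngII, 6 of the 29 genes were at least 1.5 times lower than in the young cells and 1 was higher, against 7.89% and 6.89% of all genes, and the median ratio was 0.951, beside 1.03 for all genes. The lower ones with the smallest ratios were Adamts2 at 0.470, P4ha1 at 0.547, Tmem38b, an ion channel of the endoplasmic reticulum, at 0.582, and P4ha2 at 0.587. The higher one was Tll1, a protease of the family that cleaves the carboxy-terminal propeptide, at 242 CPM in tag 1, 176 in tag 2, 677 in tag 3 and 115 in tag 4. In tag 4, 2 of the 29 were at least 1.5 times lower than in tag 2, namely Tll1 at 0.653 and the collagen receptor Ddr1 at 0.661, and 0 were higher, against 1.0% and 1.8% of all genes. The highest ratio of the 29 in that comparison was 1.25.

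**Figure D4:**
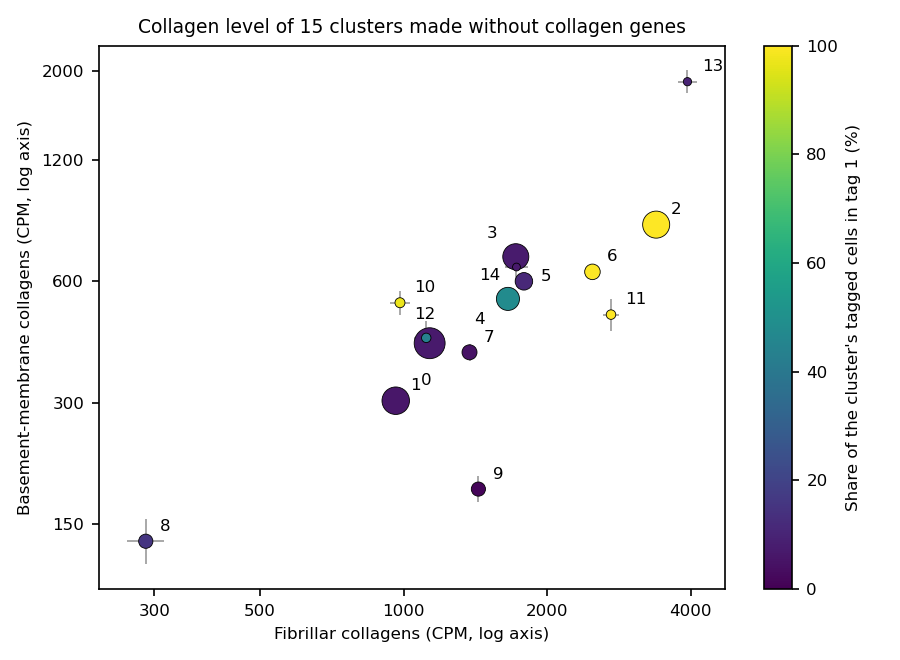
Fibrillar (x) and basement-membrane (y) collagen CPM on log axes in 15 clusters made without collagen genes, with circle area by number of cells, colour by the share of the tagged cells in tag 1, and exact Poisson 95% intervals. Cluster 13 is highest on both axes and cluster 8 lowest, while cluster 9 holds little basement-membrane collagen for its fibrillar level.

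Collagen levels also differed between kinds of cell that other genes define. Cells were clustered with the 44 collagens left out, which gave 15 clusters. Cluster 2, led by the interferon-response genes Ifit3, Ifit3b and Slfn5, held 1926 cells, of which 1730 carried tag 1, and these made up 55.0% of the cells of tag 1. Its fibrillar collagens were at 3388 CPM (3356 to 3420) and Col3a1 at 500 CPM. Clusters 1 and 6, where 8 of 8 markers of dividing cells were above the rest, were at 963 and 2490 CPM fibrillar. All 537 tagged cells of cluster 6 carried tag 1, and Ifi206 was among the 10 leading genes of both cluster 6 and cluster 2. Cluster 9, led by Lmo7, Klra4 and Slpi and holding 292 cells of tag 4, had 1436 CPM fibrillar but 183 CPM basement-membrane collagens, with Col4a1 at 84.9 CPM and Col12a1 at 287. It held 4 cells of tag 2, and 0 of 9 VSMC markers were above the rest. The same marker count held in cluster 7, where 6 of 7 fibroblast markers were above the rest. Cluster 7 held 199 cells of tag 4 and 25 of tag 2, with fibrillar collagens at 1375 CPM. The part of these clusters in the ratios of tag 4 to tag 2 was not tested. Cluster 11 held 148 tagged cells, all of tag 1, and was led by Cxcl10, Ifit3 and Oasl1. Ifit3b, Cnn1 and Acta2 were also among its 10 leading genes, and 9 of 9 VSMC markers were above the rest. Its fibrillar collagens were at 2724 CPM, with Col5a2 at 911, Col12a1 at 493 and Col1a2 at 832. The highest level was in cluster 13, with 93 cells at a median of 4241 UMIs, 3941 CPM fibrillar and 1878 CPM basement-membrane collagens. Col5a2 at 1354 CPM and Col11a1 at 1040 were above Col1a2 at 730 there, with Col4a5 at 695 and Col3a1 at 84.2. Of the tagged cells of cluster 13, 86.8% (46 cells) carried tag 3. Cluster 8 was lowest at 288 CPM fibrillar and had the shallowest cells, with a median of 3294.5 UMIs. The doublet caller marked 80.1% of the cells of cluster 4 and 9.87% of those of cluster 2.

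**Figure D5:**
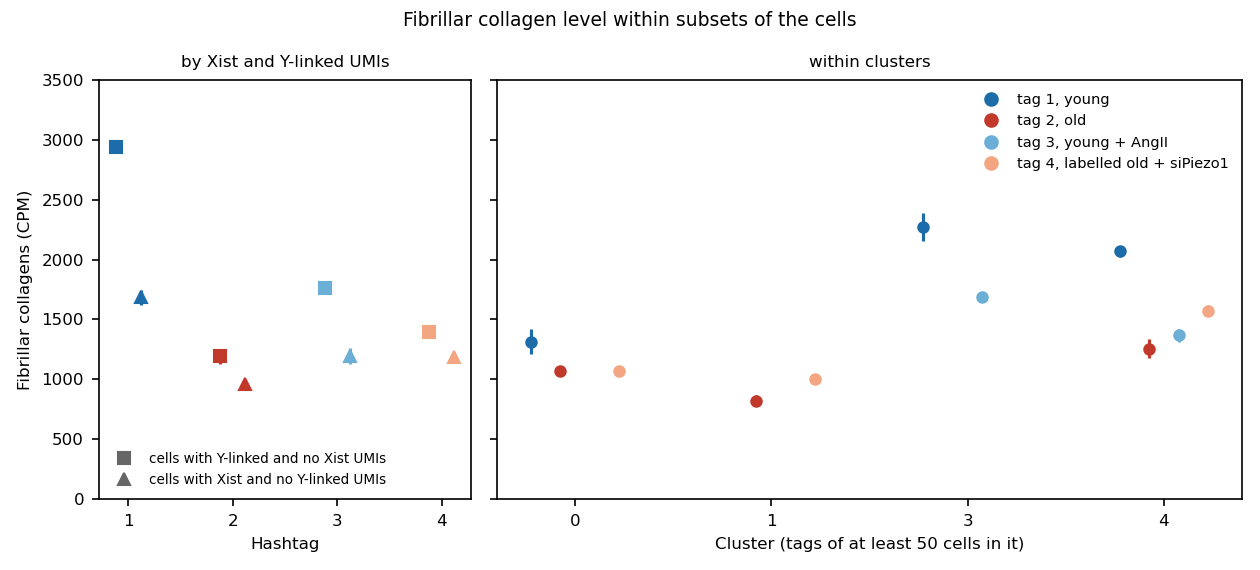
Fibrillar collagen CPM (y) by hashtag in cells with only Y-linked or only Xist UMIs (left), and by cluster and hashtag in the clusters where 2 or more tags had at least 50 cells (right), with exact Poisson 95% intervals. Tag 1 is the highest tag in each subset where it appears, and its distance from the others is smaller in Xist-only cells (1684 CPM against 958 in tag 2) and in cluster 0 (1311 against 1067).

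The young level differed with the subset of young cells taken. With cluster 2 left out, 1414 cells of tag 1 remained, among them 537 of cluster 6 and 148 of cluster 11. Both clusters shared leading genes with cluster 2. In the cells that remained, 8 of the 16 collagens were at least 1.5 times lower in tag 2 than in tag 1, and 6 were in tag 3. The shares over all genes given above are for all tagged cells, so these counts have none beside them. Without cluster 2, the fibrillar ratio was 0.504 for old to young and 0.788 for AngII-treated to young. In the same cells the basement-membrane ratio of tag 3 to tag 1 was 1.14, on the other side of 1. Within cluster 0, with 254 cells of tag 2 and 51 of tag 1, the old to young ratio was 0.814 (0.745 to 0.890) for fibrillar collagens, 0.659 (0.573 to 0.761) for Col1a2 and 0.519 (0.378 to 0.723) for Col3a1. The other 4 fibrillar genes had intervals that included 1 there, with ratios of 0.963 for Col1a1, 0.960 for Col5a2, 0.984 for Col5a1 and 1.17 for Col11a1. Basement-membrane collagens had a ratio of 1.09 with an interval that included 1 (0.934 to 1.27), and the other class was higher in the old cells of cluster 0, at 1.20 (1.01 to 1.43), with Col8a1 at 1.94 (1.31 to 2.99) and Col12a1 at 1.42 (1.09 to 1.88). Cluster 4, with 52 cells of tag 2 and 328 of tag 1, went the other way for the other class. Old to young ratios there were 0.606 (0.567 to 0.647) for fibrillar, 0.885 (0.793 to 0.984) for basement-membrane and 0.524 (0.450 to 0.606) for other collagens. Col8a1 was at 0.624 (0.485 to 0.792) and Col12a1 at 0.453 (0.356 to 0.571) in that cluster. Within cluster 3, with 838 cells of tag 3 and 67 of tag 1, the AngII-treated to young ratio was 0.742 (0.703 to 0.783) for fibrillar collagens and 0.399 (0.327 to 0.490) for Col3a1. Col4a5 had a ratio of 1.38 (1.08 to 1.80) there, against 0.878 over all cells. Within cluster 4, with 129 cells of tag 3 and 328 of tag 1, that of Col4a5 was 0.999 (0.838 to 1.19). The fibrillar ratio of tag 3 to tag 1 was 0.661 (0.631 to 0.692) in cluster 4. The basement-membrane one was 0.910 (0.841 to 0.983) in cluster 4 and 1.08 (0.975 to 1.19) in cluster 3. In the dividing cells of cluster 1, with 390 cells of tag 4 and 123 of tag 2, Col1a2 had a ratio of tag 4 to tag 2 of 1.70 (1.52 to 1.90) and Col3a1 one of 2.25 (1.66 to 3.12), against 1.20 (1.11 to 1.30) and 1.02 (0.837 to 1.26) in cluster 0. In cluster 4, most of whose cells were called doublets, with 174 cells of tag 4 and 52 of tag 2, the basement-membrane ratio was on the other side of 1 from that over all cells, at 1.16 (1.04 to 1.30), with Col4a1 at 1.14 (0.975 to 1.33) and Col4a2 at 1.18 (0.951 to 1.49). It was 0.867 (0.805 to 0.935) in cluster 0 and 0.717 (0.648 to 0.794) in cluster 1. The fibrillar ratio of tag 4 to tag 2 was 1.003 (0.957 to 1.05) in cluster 0. In clusters 1 and 4 the same ratio was 1.23 (1.15 to 1.31) and 1.25 (1.17 to 1.35).

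Within each sex-linked pattern, the fibrillar class was highest in tag 1 and lowest in tag 2. In cells with Y-linked and no Xist UMIs, fibrillar collagens were at 2937 CPM in tag 1 (1700 cells), 1192 in tag 2 (97 cells), 1767 in tag 3 (833 cells) and 1396 in tag 4 (211 cells). In cells with Xist and no Y-linked UMIs they were at 1684 CPM in tag 1 (154 cells), 958 in tag 2 (313 cells), 1191 in tag 3 (94 cells) and 1190 in tag 4 (1021 cells), so that tags 3 and 4 did not differ there beyond counting error. In the Xist-only cells, 6 of the 16 collagens were at least 1.5 times lower in tag 2 than in tag 1, against 11 in all cells, and the basement-membrane ratio was 0.904. Col11a1 and Col4a5 are examples, since their old to young ratios were 0.412 and 0.397 in all cells but 0.904 and 0.836 in Xist-only cells. Col3a1 stayed at 0.265 and Col1a2 at 0.445 there. No share over all genes stands beside the count in Xist-only cells. With few cells in some tags and weak separation of the hashtags, these ratios cannot be read as a comparison of age at matched sex.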

How the data were processed

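The authors deposited raw counts of UMIs for 32285 genes and 4 hashtags in all barcodes of 1 pooled 10x Genomics 3′ library, made with Cell Ranger 4 per the file headers. Neither a genome build nor an annotation is named by the sources used here. A cell was a barcode of at least 2218 UMIs and 200 genes, and it carried a tag when only that hashtag exceeded its cutoff (36, 52, 61 or 41 UMIs for tags 1 to 4). Levels are CPM, from the counts summed over the cells of a tag, with 95% intervals that are exact Poisson for levels and exact binomial for ratios. No statistical test was made, because each group was taken as 1 culture. A ratio was counted as higher or lower at a fold of 1.5, over genes of at least 10 CPM in the pool of tagged cells. In simulated counts for tag 2 and tag 1, 95.3% of the intervals over 8463 genes, 200 of them changed by a fold of 2, held the true ratio. Those counts were drawn as Poisson, which the intervals assume, so this checks the computation and not the spread between cells or cultures. Free RNA was the profile of barcodes of 1 to 100 UMIs. Scrublet (scanpy 1.11.5) marked doublets, which were kept except where stated. It called 23.4% of cells at an expected rate of 0.1. Clusters were made with Seurat 5.3.0 in R 4.3.3 without collagen genes (2000 variable genes, 30 components, Louvain resolution 0.8). All 44 collagens matched GENCODE vM21 by identifier, and 35 had a RefSeq promoter window. Named were every collagen of at least 10 CPM, 4 fixed processing genes and at most 4 others in each direction of a comparison. The collagens, the lists and these rules were chosen with earlier results of these data known. Alternatives were other tag rules, cell filters, thinning, scaling, doublet removal, free RNA subtraction and sex-linked subsets.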

Additional observations from a re-analysis of the deposited data

Results flagged for a closer look

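Col6a3, the third chain of type VI collagen, was at 17.4 CPM in the 5307 cells without a tag, which enter no comparison, above the level in both control groups (7.71 CPM in tag 1 and 11.8 in tag 2, with intervals that do not overlap that of the untagged cells). It was at 5.69 CPM in tag 3, 13.7 in tag 4 and 23.4 in free RNA. The part of free RNA in this value was not tested.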

How the results depend on the processing

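Over all cells and all alternatives, the fibrillar ratios of tags 2 and 3 to tag 1 stayed below 1 and that of tag 4 to tag 2 above 1. Within cluster 0, however, the fibrillar ratio of tag 4 to tag 2 was 1.003 (0.957 to 1.05). The alternatives that left out cells of cluster 2, took Xist-only cells or assigned tags by the highest centred log ratio were chosen after seeing the data. The cause of each shift was not tested. For fibrillar tag 2 to tag 1, the ratio was 0.374 with 5% free RNA subtracted, 0.378 thinned to 5000 UMIs, 0.337 without doublets, 0.403 with a tag 3 times the next, 0.427 with doubled cutoffs, 0.406 in Y-linked-only cells, 0.569 in Xist-only cells, 0.403 by centred log ratio and 0.504 without cluster 2. For fibrillar tag 3 to tag 1, it was 0.601 with free RNA subtracted, 0.601 thinned, 0.581 without doublets, 0.656 with doubled cutoffs, 0.589 by median-of-ratios scaling, 0.602 in Y-linked-only cells, 0.707 in Xist-only cells and 0.788 without cluster 2. For fibrillar tag 4 to tag 2, it was 1.12 with a tag 3 times the next and 1.24 in Xist-only cells. For basement-membrane tag 2 to tag 1, it was 0.705 with a tag 3 times the next, 0.715 with doubled cutoffs, 0.597 without doublets, 0.904 in Xist-only cells and 0.787 without cluster 2. For basement-membrane tag 3 to tag 1, it was 0.909 thinned, 0.967 with doubled cutoffs, 0.907 by median-of-ratios scaling, and 1.14 both in Xist-only cells and without cluster 2. For basement-membrane tag 4 to tag 2, it was 0.703 with a tag 3 times the next, 0.741 thinned, 0.745 without doublets, 0.940 in Y-linked-only cells and 0.726 in Xist-only cells. The Col28a1 ratio of tag 4 to tag 2, above 1 over all cells, was 0.542 with a tag 3 times the next, 0.934 with doubled cutoffs, 0.925 thinned and 0.754 in Xist-only cells. It had no value in Y-linked-only cells, where tag 2 held 0 of its UMIs. The count of collagens at least 1.5 times lower in tag 2 than in tag 1 ranged from 6 (Xist-only cells) to 12 (without doublets), and that in tag 3 from 4 (Xist-only cells) to 7. The counts under these alternatives have no share over all genes beside them. In tag 4 against tag 2, 0 to 3 were higher and 0 to 4 lower, with 0 higher by centred log ratio. At a fold of 2, 5.12% of all genes were lower and 2.74% higher in tag 2 than in tag 1. No paired analysis was possible because the groups share no replicate numbers. Depth limits Col28a1 most, with 6 UMIs in tag 2.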
